A study of Mus musculus with 2 samples.

Results

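Apoa1-high mature enterocytes are the cells of mouse ileal enteroids that carried abundant transcripts of *Apoa1*, the main protein of high-density lipoprotein, without high levels of secretory cell transcripts. They were chosen by measured values. A cell was a member when it held at least 5000 unique molecular identifiers (UMIs, 1 per captured transcript), at least 5 *Apoa1* UMIs per 10000 UMIs of the cell, *Tff3* under 50 and *Lyz1* under 20 per 10000, and *Chga*, *Chgb*, *Cpe* and *Neurod1* together under 10 per 10000. This selected 218 of 4374 cells, 116 of 2563 in the control library and 102 of 1811 in the library labelled Taf4IEC. Enteroids are organoids, started here from crypts of the ileum of C57Bl6/129sv mice at 4 months of age. Per the methods of the study, both groups carried loxP-flanked *Taf4* (Taf4lox/lox), which encodes part of TFIID, the complex that recruits RNA polymerase II to promoters, and Taf4IEC enteroids carried in addition VilCreERT2, a Cre recombinase under the villin promoter of intestinal epithelium that tamoxifen switches on. The Taf4IEC enteroids received 1 µM 4-hydroxytamoxifen (4-OHT) for 3 days. For the control, the label gives WT and ethanol (the solvent), which does not match the 4-OHT treatment given in the methods. Live cells were sorted and captured with the 10X Genomics 3′ chemistry.

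Enterocytes are the absorptive cells of the intestinal villus. As they mature they digest sugars and peptides at a brush border, take up fatty acids and monoglycerides, rebuild triglycerides and export them as chylomicrons, particles that carry apolipoproteins such as *Apob*, *Apoa1*, *Apoa4* and *Apoc3*. Mature enterocytes also hold cytochrome P450, glutathione transferase and glucuronosyltransferase enzymes that modify foreign compounds and bile acids.

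There was 1 library per condition, so no test between conditions was possible and no p-value is given. Levels are the UMIs of a gene in all members of a library, per 10000 UMIs of those members. All intervals are 95% intervals and cover counting error only, exact Poisson for levels, exact conditional binomial for ratios and exact Clopper-Pearson for shares of cells. Log2 ratios are Taf4IEC over control. The libraries held 39947009 and 24990128 UMIs, of which members gave 2566705 and 4162357. Depth differed between the groups: members had a median of 22656.5 UMIs (7987 to 41105) in the control and 43688.5 (5166 to 63809) in Taf4IEC. The number of genes per member ranged from 2133 to 4999 and from 1559 to 5859. No control cell had more than 4999 genes, whereas 50 of the 102 Taf4IEC members had at least 5000. The libraries shared 2 cell barcodes, and 0 of them belonged to a member.

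*Taf4* itself was sparse in these cells. Control members held 15 *Taf4* UMIs, or 0.0584 per 10000 (0.0327 to 0.0964), against 26 UMIs and 0.0625 per 10000 (0.0408 to 0.0915) for Taf4IEC. The log2 ratio was 0.10 with an interval of -0.87 to 1.12, so a lower level was not detectable at this depth. The sources used here do not say whether the counted 3′ ends lie in the deleted part of the gene (chromosome 2, 179912146 to 179976646, GRCm38.p6). Differences below are therefore between libraries as labelled and are not tied to a measured loss of *Taf4* transcripts.

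The *Apoa1* limit of 5 cut a continuous range of levels. Within the limits on secretory genes, 1435 control cells and 388 Taf4IEC cells were under 1 *Apoa1* UMI per 10000, and 75 and 33 lay from 1 to under 5. The values nearest to the limit were 4.92 and 5.10 in the control and 4.91 and 6.01 in Taf4IEC. Just outside, from 3 to under 5, were 18 control cells with *Apoc3* at 16.7 and *Fabp1* at 34.5 per 10000. Just inside, from 5 to under 7, were 16 control cells with *Apoc3* at 14.7 and *Fabp1* at 65.4. The 8 Taf4IEC cells just outside had *Apoc3* at 5.86 and *Fabp1* at 24.7, and the 5 just inside had 6.24 and 18.4. Cells on both sides of the limit thus carried enterocyte transcripts. The limits on secretory genes removed 5 control cells, 4 by *Tff3* and 1 by the endocrine genes, and 1 Taf4IEC cell, by *Lyz1*. A further 11 control and 21 Taf4IEC cells with *Apoa1* of at least 5 held 2000 to under 5000 UMIs.

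**Figure D1:**
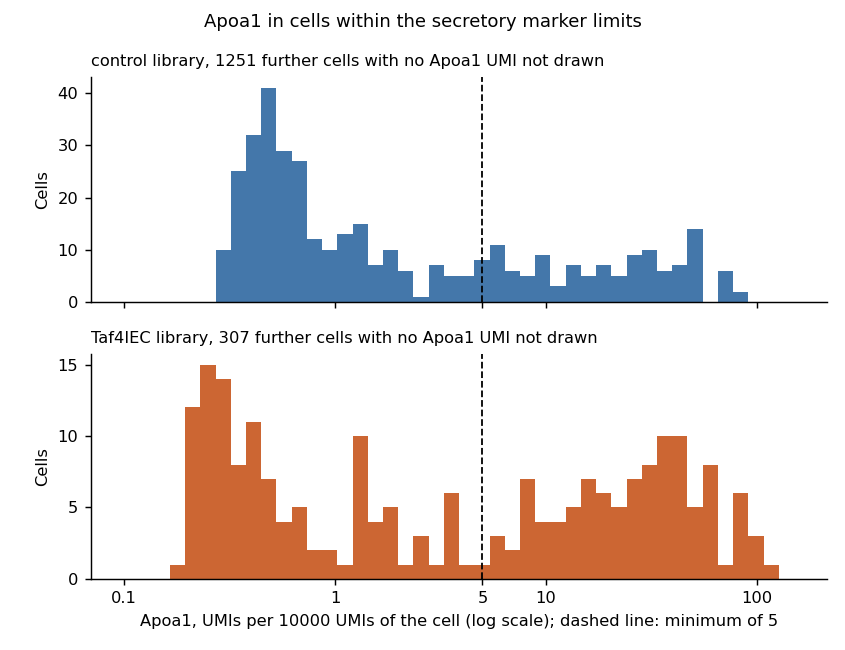
Number of cells (vertical axis) by Apoa1 level in UMIs per 10000 of the cell (horizontal axis, log scale), for cells of at least 5000 UMIs within the secretory gene limits, control above and Taf4IEC below. The dashed line is the minimum of 5; the 1251 control and 307 Taf4IEC cells without an Apoa1 UMI are not drawn. Cells lie on both sides of the line, 18 and 8 of them from 3 to under 5.

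Members made up 4.53% of all control cells (3.75 to 5.40) and 5.63% of all Taf4IEC cells (4.62 to 6.80). The difference of 1.11 percentage points had an interval of -0.237 to 2.50, which includes 0. It did not include 0 with an *Apoa1* minimum of 10, where the shares were 3.20% and 4.86% (difference 1.66, 0.450 to 2.93), or with a minimum of 2000 UMIs per cell, where they were 4.92% and 6.68% (1.77, 0.333 to 3.25). Among cells of at least 5000 UMIs the shares were 5.84% of 1988 (4.85 to 6.96) and 13.5% of 758 (11.1 to 16.1), a difference of 7.62 points (5.02 to 10.4). The median depth over all cells was 16749 UMIs in the control and 2254 in Taf4IEC, and the part of this depth gap in the second difference was not tested. The largest number of genes in a cell was 4999 in the control and 5997 in Taf4IEC, where 50 members had at least 5000. Cells of that range are thus counted in the Taf4IEC shares only, and their part in either difference was not tested.

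The label of mature enterocytes was held against markers of each cell type. Without *Apoa1*, which chose the cells, the other 14 enterocyte markers summed to 232 UMIs per 10000 in members of each library, against 12.7 and 27.3 in the other cells of at least 5000 UMIs. Stem cell markers (11 genes, *Lgr5* and *Olfm4* among them) summed to 1.13 and 0.569, against 17.8 and 13.2 in the other cells. Leaving out the genes of the rule, 9 Paneth cell markers summed to 0.982 and 0.963, against 18.1 and 70.4 in the other cells, and 8 goblet cell markers to 1.50 and 1.92, against 22.2 and 95.3. In the same way 14 enteroendocrine markers summed to 0.171 and 0.142, against 10.1 and 35.5. Since the rule removed secretory cells, these sums were low in part by choice. Tuft cell markers summed to 0.0195 and 0.0312, and markers of immune, vessel, stromal and glial cells to 0.0117 and 0.0024. Secretory cells, which should lack enterocyte transcripts, gave the background. In the 362 control and 235 Taf4IEC cells over a secretory limit, *Apoa1* was at 0.245 and 0.153, *Apoc3* at 0.155 and 0.197, *Fabp1* at 0.108 and 0.612 and *Cyp3a11* at 0.0174 and 0.107 UMIs per 10000, at median depths of 15364 and 23732 UMIs. Without the 5 control cells and 1 Taf4IEC cell with *Apoa1* of at least 5, *Apoa1* was at 0.0988 and 0.106 and *Fabp1* at 0.108 and 0.142. After every cell was thinned to 5000 UMIs, *Apoc3* was detected in 98.3% and 90.2% of members and in 6.08% and 6.81% of secretory cells. The 8 villus tip genes summed to 29.2 and 11.7 in members, against 1.95 and 1.73 in the other cells. The 8 villus base genes summed to 8.03 and 10.3, against 5.10 and 4.87. The 4 measured tip genes had log2 ratios below 0 (median -0.67) and the 3 measured base genes above 0 (0.35). Sums do not show single cells: a Taf4IEC member of 54458 UMIs had *Apoc3* at 0.184 and *Fabp1* at 0.

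Genes were compared with the other cells of the same library as a description, because the cells were separated by expression. Of 3178 genes with at least 200 UMIs over members, 416 were at least 2-fold higher in members in both libraries (13.1%) and 187 at least 2-fold lower in both (5.88%). This minimum was counted in members, so genes scarce in members were left out. With a minimum of 50 UMIs, more genes were lower than higher. The 15 with the largest smaller ratio were *Pdzk1*, *Cubn*, *Apoc3*, *Mme*, *Arg2*, *Cyp2c29*, *Slc5a4b*, *Apoa4*, *Fabp2*, *Alpi*, *Ggt1*, *Rbp2*, *Bco1*, *Fabp1* and *Dpep1*. They encode a brush border scaffold (*Pdzk1*), an endocytic receptor for vitamin B12 with intrinsic factor (*Cubn*), surface peptidases and a phosphatase (*Mme*, *Ggt1*, *Dpep1*, *Alpi*), fatty acid and retinol carriers (*Fabp1*, *Fabp2*, *Rbp2*) and the enzyme that cleaves beta-carotene (*Bco1*). *Pdzk1* stood 6.41 and 6.45 higher on the log2 scale in members, at 0.768 against 0.00904 UMIs per 10000 in the control and 0.581 against 0.00665 in Taf4IEC. *Cubn* stood 5.58 and 5.48 higher. Ribosomal protein genes were lower as a group, with 18.4% and 16.9% of the UMIs of members against 34.9% and 26.8% of the other cells. The other cells were not the same mix in both libraries: 362 of 1872 in the control and 235 of 656 in Taf4IEC were over a secretory limit. Ratios between libraries in the other cells, given below, also hold this difference in mix, and its part was not tested.

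The cells most like the members were enterocytes with little *Apoa1*, taken as cells within the same secretory limits with *Apoa1* under 5 and *Sis*, *Fabp1* and *Fabp2* together at least 20 per 10000. There were 69 in the control and 34 in Taf4IEC. Of 3175 genes, 53 were at least 2-fold higher in members in both libraries (1.67%) and 2 at least 2-fold lower (0.0630%). Here too the minimum was counted in members and left out genes scarce in them. By the smaller of the 2 ratios the first 6 were *Sprr1a*, *Pdzk1*, *Cyp4b1*, *Oasl1*, *Bmp2* and *Cldn4*. Those higher included the P450 genes *Cyp2c29* (2.07 in the control and 1.68 in Taf4IEC on the log2 scale), *Cyp2b10* (1.56 and 1.23) and *Cyp4b1* (2.22 and 2.08). The 29 measured genes of foreign compound metabolism had medians of 0.63 and 0.26. Also higher were *Pdzk1* (2.18 and 3.70), *Gda*, a guanine deaminase (1.90 and 1.77), *Mt4*, a metallothionein (1.81 and 1.52), *Apoc3* (1.75 and 1.92) and *Bmp2*, a bone morphogenetic protein (1.91 and 1.93). The 2 lower genes were *Nupr1*, a small stress-induced nuclear protein (-1.33 and -1.39), and *Lcorl* (-1.01 and -1.01). *Ccnd2*, a cyclin (-1.10 and -0.99), and *Lgals2*, a galectin (-1.06 and -0.92), missed 2-fold in Taf4IEC. *Sis*, the sucrase-isomaltase of the brush border, which served to choose the comparison cells, was at 18.8 and 26.3 in them and at 18.8 and 27.7 in members.

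Apolipoproteins are described first, as *Apoa1* sets the members. *Apoa1*, *Apoc3* and *Apoa4* lie side by side on chromosome 9 (46228630 to 46230469, 46233050 to 46235636 and 46240844 to 46243458, GRCm38.p6). The level of *Apoa1*, a description only, was 25.8 UMIs per 10000 in control members (lowest, median and highest cell 5.10, 20.7 and 87.2) and 33.2 in Taf4IEC members (6.01, 29.7 and 116). *Apoa4*, a lipid-responsive apolipoprotein, was at 24.0 (23.4 to 24.6) in the control, with cells from 2.13 over a median of 18.4 to 185. In Taf4IEC it was at 7.36 (7.10 to 7.62), with cells from 0 over 3.74 to 124. The groups of cells overlapped, but 0 of 116 control members and 12 of 102 Taf4IEC members (11.8%, 6.23 to 19.6) were under 1. The log2 ratio of *Apoa4* was -1.70 (-1.77 to -1.64), and it was -1.74 in the other cells. In members with 20000 to under 40000 UMIs alone, 71 and 27 cells, it was -0.69, under 2-fold.

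*Apoc3*, an inhibitor of lipoprotein lipase, was at 37.3 (36.5 to 38.0) in control members and 23.8 (23.4 to 24.3) in Taf4IEC members. Its cells ran from 0.734 over 29.9 to 132 in the control and from 0 over 12.1 to 239 in Taf4IEC, with a log2 ratio of -0.65 (-0.69 to -0.60). The ratio depended on which members were compared. It was 0.04 in members with 20000 to under 40000 UMIs, whose median cell was at 24.4 and 20.3 and among which *Apoa1* was at 23.3 and 43.4, and -0.05 in members with under 5000 genes (116 and 52 cells). At like *Apoa1*, from 10 to under 40, it was -0.98. *Apob*, the structural protein of the chylomicron, went the other way, from 1.59 to 2.34 (log2 ratio 0.56, 0.39 to 0.73). *Mttp*, which loads lipid onto it, had a log2 ratio of 0.16, and *Sar1b*, which is needed to move chylomicrons out of the endoplasmic reticulum, 0.12. Of the 12 genes of chylomicron assembly, 7 reached 200 UMIs without *Apoa1*. Among them 0 were at least 2-fold higher and 1, *Apoa4*, at least 2-fold lower, with a median log2 ratio of -0.09, against -0.05 over all 3178 genes. Of all genes 36 were at least 2-fold higher in Taf4IEC members (1.13%) and 45 at least 2-fold lower (1.42%). *Creb3l3*, a transcription factor that acts on apolipoprotein genes, was at 1.43 in the control and 0.723 in Taf4IEC members (log2 ratio -0.99, -1.21 to -0.76), against 0.06 in the other cells. After thinning to 5000 UMIs, the Spearman correlation of *Apoa4* with *Creb3l3* over members was 0.14 in the control and -0.00 in Taf4IEC. At these levels a cell thinned to 5000 UMIs holds few or no *Creb3l3* UMIs, so a correlation near 0 cannot decide on a link. A link between the 2 genes was not tested.

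The promoters of *Apoa1*, which chose the cells, and *Apoa4*, which differed most between libraries among its neighbours, are given as 250 bases before the start of the gene (RefSeq, GRCm38.p6, chr9:46228380-46228629 and chr9:46240594-46240843, both on the + strand). Capitals mark CAAAGTNCA on either strand, letters of the kind bound by the nuclear receptor HNF4, searched with the sequences in view.
Apoa1: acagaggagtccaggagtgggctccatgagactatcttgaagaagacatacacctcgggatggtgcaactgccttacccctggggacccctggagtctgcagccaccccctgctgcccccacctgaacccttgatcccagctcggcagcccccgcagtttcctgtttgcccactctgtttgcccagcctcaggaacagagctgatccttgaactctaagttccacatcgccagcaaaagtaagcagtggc
Apoa4: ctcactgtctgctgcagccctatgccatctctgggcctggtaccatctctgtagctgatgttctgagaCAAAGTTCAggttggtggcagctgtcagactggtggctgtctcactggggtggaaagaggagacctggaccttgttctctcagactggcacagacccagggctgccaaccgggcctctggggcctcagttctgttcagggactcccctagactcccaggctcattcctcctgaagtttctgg
The *Apoa4* window held 1 match, beginning 182 bases before the start, and the *Apoa1* window 0. Of all 32851 promoters of this length 1.19% held the letters, and of 10 chylomicron genes with an entry 2 did, *Apoa4* and *Apobec1*. A match is a description of the letters and not a site of binding. Only these exact letters were searched, so 0 matches does not show that the *Apoa1* window has no site for HNF4.

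**Figure D2:**
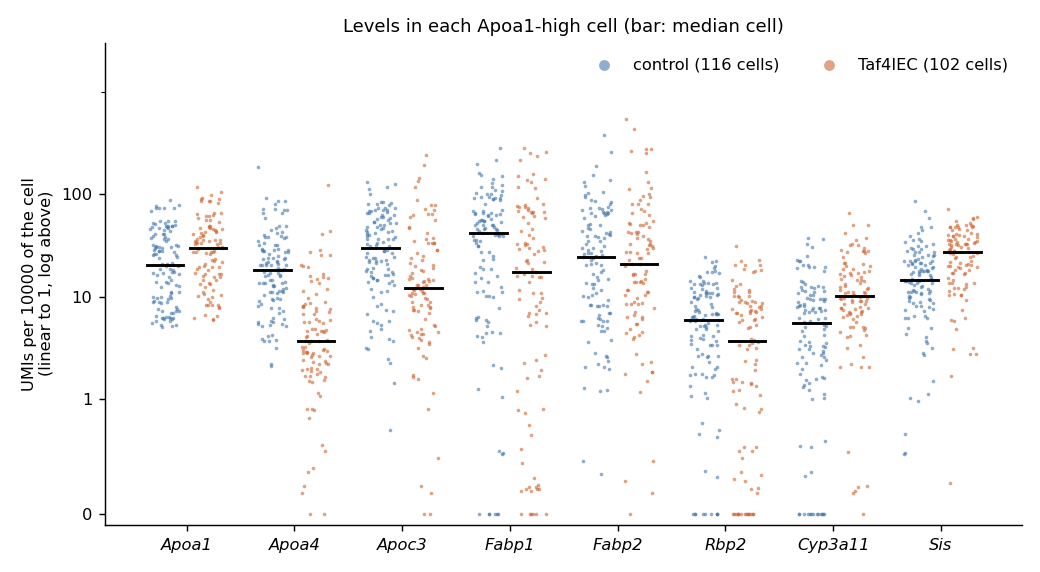
UMIs per 10000 of the cell (vertical axis, linear to 1 and log above) for 8 genes in each of the 116 control and 102 Taf4IEC members; dots are cells and bars the median cell. The clouds overlap for every gene, and the median cell of Apoa4 is 18.4 in the control and 3.74 in Taf4IEC.

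Summed over all members, the measured genes of fat uptake and resynthesis differed by less than 2-fold between the libraries. *Fabp1*, the liver-type fatty acid carrier, was at 52.7 and 47.3 (log2 ratio -0.16, -0.19 to -0.12), and *Fabp2*, the intestinal one, at 39.0 and 44.6 (0.20, 0.16 to 0.23). In members with 20000 to under 40000 UMIs *Fabp1* was at 59.5 and 29.4 (-1.02, past 2-fold), and in members with *Apoa1* from 10 to under 40 the ratio of *Fabp2* was -0.61. *Mogat2* and *Dgat1*, acyltransferases that rebuild triglyceride, had log2 ratios of -0.01 and 0.13, and *Plin2*, a lipid droplet coat protein, -0.57. Of 14 listed genes 11 were measured and 0 passed 2-fold either way, with a median of 0.09. The single cells of *Fabp1* differed more than its sums. The median member was at 41.7 and 17.4 per 10000 and the highest at 285 and 283, and 9 of 116 control members (7.76%, 3.61 to 14.2) against 22 of 102 Taf4IEC members (21.6%, 14.0 to 30.8) were under 1. *Rbp2*, the cellular retinol carrier of enterocytes, was at 7.20 and 5.83, with 15 (12.9%, 7.42 to 20.4) and 31 (30.4%, 21.7 to 40.3) cells under 1. Of the retinoid genes, *Aldh1a1*, which makes retinoic acid, had a log2 ratio of 0.64. That of *Bco1* was -0.57, with -1.46 in members with *Apoa1* from 10 to under 40 and 0.01 in those with 20000 to under 40000 UMIs.

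Brush border enzymes moved in both directions. *Sis* was at 18.8 (18.2 to 19.3) in the control and 27.7 (27.2 to 28.2) in Taf4IEC members, with a log2 ratio of 0.56. *Anpep*, the aminopeptidase N, was at 0.284 (0.223 to 0.358) and 0.889 (0.801 to 0.984), with a log2 ratio of 1.64 (1.28 to 2.03), and was detected after thinning in 9.48% and 23.5% of members. *Alpi*, the intestinal alkaline phosphatase, was at 0.308 and 0.728 (1.24, 0.88 to 1.62), which was 0.79 in members with *Apoa1* from 10 to under 40. *Mme*, the peptidase neprilysin, was at 0.619 (0.527 to 0.724) and 0.147 (0.112 to 0.188), with a log2 ratio of -2.08 (-2.53 to -1.65). *Dpp4* (-0.07) and *Ggt1* (-0.23) were close to level. Of 17 listed enzymes 11 were measured, 2 were at least 2-fold higher, 1 at least 2-fold lower, and the median was 0.36. In the other cells *Anpep* differed by 3.98, *Alpi* by 2.04 and *Mme* by -1.74, and the median of the list by 1.16.

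Nutrient transporters had a median log2 ratio of 0.07, with 0 of 8 measured genes past 2-fold. *Slc5a1*, the sodium-glucose transporter, was at 5.51 and 8.20 (0.57, 0.48 to 0.66). *Slc3a2*, the heavy chain of amino acid exchangers, was at 2.24 and 1.15 (-0.96, -1.13 to -0.78). Outside the list, *Cubn*, the vitamin B12 receptor, was at 0.732 and 0.298 (-1.30, -1.64 to -0.96). The ratio of *Cubn* was -1.21 in the other cells. Of the microvillus genes 11 of 12 measured were above 0, such as *Vil1*, villin, at 3.16 and 4.04. Their median was 0.19, against -0.05 over all 3178 genes. Ileal bile acid genes did not share a direction: *Slc10a2*, the bile acid importer, was at 1.01 and 1.26 (0.32), *Slc51b*, part of the exporter, at 2.40 and 1.49 (-0.69), and the cytosolic carrier *Fabp6* at 0.740 and 0.706 (-0.07). The ratio of *Fabp6* changed sign with the choice of members, to 0.93 with an *Apoa1* minimum of 10 and 1.91 with *Apoa1* from 10 to under 40.

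Genes of foreign compound metabolism were mostly higher in the Taf4IEC members. Of 32 listed genes 29 were measured, 25 with a log2 ratio above 0 and 4 below. Of these 3 were at least 2-fold higher and 0 at least 2-fold lower. The median was 0.47, against -0.05 over all 3178 genes, of which 1.13% were at least 2-fold higher and 1.42% at least 2-fold lower. *Cyp3a11*, the main intestinal P450 of its family, was at 7.89 (7.55 to 8.24) in control members, with cells from 0 over a median of 5.62 to 37.4. In Taf4IEC it was at 13.0 (12.6 to 13.3), with cells from 0 over 10.2 to 66.1, and 18 control against 6 Taf4IEC members were under 1. The 3 genes past 2-fold were *Cyp2b10* (0.736 and 1.88, log2 ratio 1.35, 1.12 to 1.59), *Cyp4v3* (0.378 and 0.793, 1.07) and *Ugt2b5* (0.464 and 0.937, 1.02). In members with *Apoa1* from 10 to under 40 these ratios were 0.79, 0.84 and 0.56. *Cyp2c29*, outside the list, was at 6.54 and 14.1 (1.11, 1.03 to 1.19), and its ratio was 0.42 in those members. *Nr1i3*, the nuclear receptor CAR that acts on *Cyp2b10*, was at 0.397 and 0.699 (0.81, 0.48 to 1.15). The glutathione transferase *Gsta1* was at 58.8 and 91.0 (0.63) and *Gstm1* had a log2 ratio of 0.71, whereas *Cyp2d26* was at 8.01 and 5.67 (-0.50). The list was higher by a median of 1.50 in the other cells and 0.81 in the enterocytes with little *Apoa1*.

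Sugar and mitochondrial metabolism held single genes that stood apart from their lists. *Fbp1*, fructose-1,6-bisphosphatase of gluconeogenesis, was at 7.98 (7.64 to 8.34) and 2.62 (2.46 to 2.78), with a log2 ratio of -1.61 (-1.72 to -1.50), with a median member of 6.71 and 1.39. The ratio of *Fbp1* was -1.62 in the other cells, so the difference was not particular to members. The fructolytic enzymes *Khk* and *Tkfc* were higher by 0.49 and 0.55. *Slc2a1*, the glucose transporter GLUT1, was at 1.05 and 0.449 (-1.22, -1.50 to -0.95), and was the 1 glycolysis gene of 15 past 2-fold in a list with a median of -0.14. In members with *Apoa1* from 10 to under 40 and in those with 20000 to under 40000 UMIs the ratio of *Slc2a1* was under 2-fold, at -0.89 in each. *Eci1*, an isomerase of fat oxidation, was at 0.655 and 1.91 (1.55, 1.30 to 1.79), while the 18 measured genes of its list had a median of 0.02. *Oat*, which feeds ornithine into citrulline synthesis, was at 17.3 and 32.0 (0.89). Transcripts encoded by the mitochondrial genome were higher by a median of 0.49, with 1 of 13, *mt-Cytb*, past 2-fold (1.04, and 0.78 in members with 20000 to under 40000 UMIs), whereas 71 nuclear genes of the respiratory chain had a median of -0.07. Mitochondrial UMIs made up 8.47% of control and 10.1% of Taf4IEC members.

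**Figure D3:**
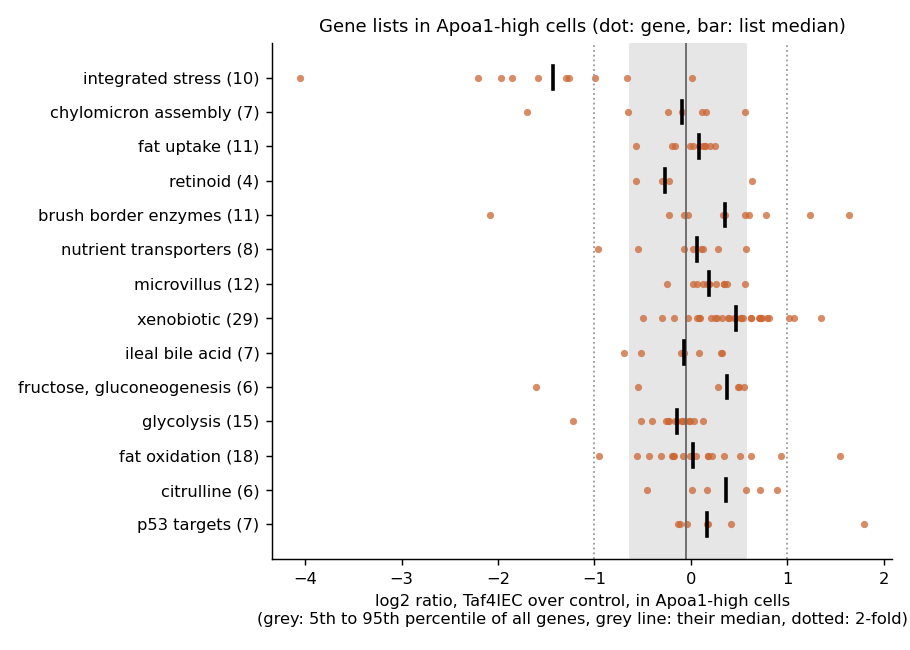
Log2 ratio of Taf4IEC over control in members (horizontal axis) for the measured genes of 14 lists (rows, number of genes in brackets); dots are genes, black bars list medians, the grey band the 5th to 95th percentile of 3178 genes (-0.63 to 0.57). Integrated stress genes have a median of -1.43, outside the band.

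The integrated stress response list had the lowest median of the 33 lists with at least 2 measured genes. In this response the translation of ATF4, a transcription factor, increases when amino acids are short or proteins misfold, and ATF4 switches on genes of amino acid synthesis and the factor CHOP (*Ddit3*). Of 18 listed genes 10 were measured, 7 were at least 2-fold lower in Taf4IEC members, 0 at least 2-fold higher, and the median log2 ratio was -1.43. *Ddit3* was at 2.45 (2.26 to 2.65) in the control and 0.627 (0.553 to 0.708) in Taf4IEC, with a log2 ratio of -1.97 (-2.18 to -1.76), and was detected after thinning in 50.9% and 26.5% of members. *Trib3*, a pseudokinase that CHOP and ATF4 induce, was at 0.678 and 0.147 (-2.21). *Asns*, asparagine synthetase, was at 1.59 (1.44 to 1.75) and 0.440 (0.378 to 0.508), with a log2 ratio of -1.85 (-2.11 to -1.60). *Nupr1* was at 3.07 (2.86 to 3.30) and 0.185 (0.146 to 0.231), the largest difference of the list at -4.05 (-4.41 to -3.72), and its highest cell was at 45.9 in the control and 3.63 in Taf4IEC.

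The other members of the list past 2-fold were *Mthfd2*, a mitochondrial folate enzyme (-1.58), *Eif4ebp1*, an inhibitor of translation initiation (-1.29), and *Vldlr*, a lipoprotein receptor (-1.26, and -0.86 in members with *Apoa1* from 10 to under 40). *Atf4* itself was at 2.07 and 1.04 (-0.99, -1.18 to -0.81), *Cebpb* at 0.725 and 0.459 (-0.66), and *Aldh18a1*, the first enzyme of proline synthesis, at 0.394 and 0.396 (0.01). *Aars*, an alanyl-tRNA synthetase outside the list, had a log2 ratio of -1.63, and *Slc3a2*, described above, -0.96. Summed over the list, members held 17.6 UMIs per 10000 in the control (cells from 3.42 over a median of 15.3 to 65.3) and 5.81 in Taf4IEC (cells from 1.50 over 4.59 to 23.2). The same sum was 20.5 and 10.2 in the other cells, where the median log2 ratio was -0.86, and 22.0 and 6.69 in the enterocytes with little *Apoa1*, where it was -1.19. The difference was thus present outside the members as well. *Ddit3* stood higher in members than in the other cells of each library (2.38 and 1.55 on the log2 scale), whereas *Nupr1* stood lower (-1.62 and -4.39).

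Promoters of *Asns* and *Nupr1*, both lower in Taf4IEC members, are shown as 250 bases before the start (chr6:7693210-7693459 and chr7:126625471-126625720, both on the - strand and written 5′ to 3′ in the direction of the gene). Capitals mark TGATGNAA on either strand, the letters of the C/EBP-ATF response element that ATF4 binds with a partner.
Asns: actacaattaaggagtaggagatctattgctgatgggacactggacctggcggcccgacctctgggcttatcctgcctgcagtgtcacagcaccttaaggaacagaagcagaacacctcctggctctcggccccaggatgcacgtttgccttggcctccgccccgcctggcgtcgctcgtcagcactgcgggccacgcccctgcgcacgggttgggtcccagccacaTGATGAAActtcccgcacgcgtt
Nupr1: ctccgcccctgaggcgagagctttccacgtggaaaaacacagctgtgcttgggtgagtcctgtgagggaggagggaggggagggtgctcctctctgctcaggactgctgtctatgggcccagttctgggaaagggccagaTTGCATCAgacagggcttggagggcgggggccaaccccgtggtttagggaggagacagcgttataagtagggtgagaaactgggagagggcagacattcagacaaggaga
The match began 23 bases before the start of *Asns*, on the strand of the gene, and 110 bases before that of *Nupr1*, on the opposite strand. The letters were found in 3.45% of the 32851 promoters and in 6 of the 17 listed stress genes with an entry. These were *Asns*, *Atf3*, *Chac1*, *Nupr1*, *Slc7a11* and *Vldlr*, of which *Atf3*, *Chac1* and *Slc7a11* were not among the measured genes. The lower genes *Ddit3*, *Trib3* and *Mthfd2* had an entry without the letters. The list names genes of the response in which ATF4 acts, and the promoters shown are among those with a match. The shares are therefore descriptions, and binding or a part of ATF4 in the difference was not tested.

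**Figure D4:**
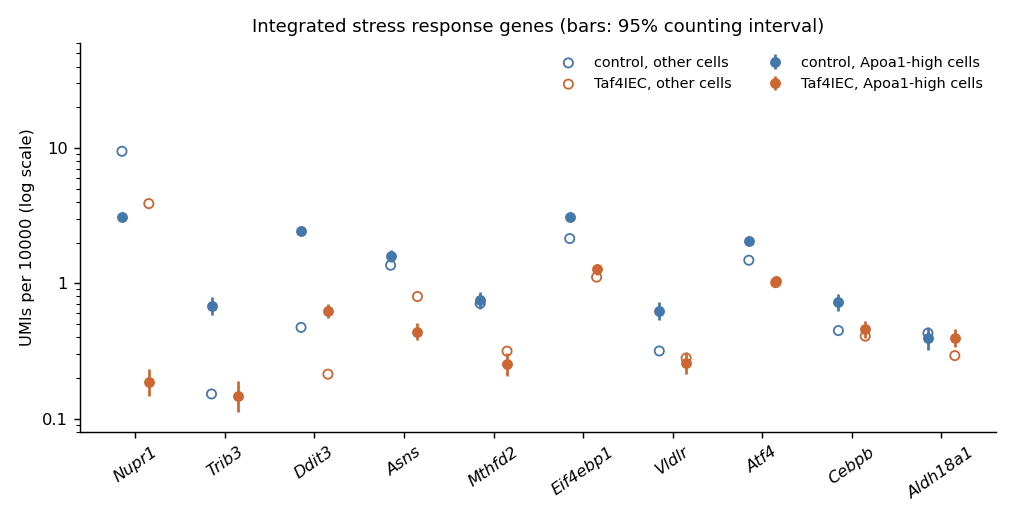
UMIs per 10000 (vertical axis, log scale) of the 10 measured integrated stress genes, in order of their log2 ratio; filled points are members with 95% Poisson intervals and open points the other cells of at least 5000 UMIs, control in blue and Taf4IEC in orange. Taf4IEC members lie below control members for all genes but Aldh18a1 (0.394 and 0.396).

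Other stress and damage genes did not follow that list. *Ccng1*, a p53 target, was at 0.483 (0.402 to 0.576) and 1.68 (1.56 to 1.81), with a log2 ratio of 1.80 (1.52 to 2.08), and was the 1 of 7 measured p53 targets past 2-fold. Its ratio was 1.92 in the other cells. The cell cycle inhibitor *Cdkn1a* was at 6.47 and 7.27 (0.17), *Bax* at 1.71 and 1.94 (0.18), and the median of the list was 0.17, against 1.11 in the other cells. Immediate early genes had a median of -0.23 with 0 of 8 past 2-fold. *Sprr1a*, a cornified envelope protein of damaged epithelium, was at 0.861 and 0.135 (-2.68), but its highest control cell was at 30.0, it was detected after thinning in 6.03% and 2.94% of members, and the ratio was 0.67 in members with 20000 to under 40000 UMIs. *Cldn4*, a tight junction protein, was at 0.697 and 0.344 (-1.02) and its ratio was 0.12 in those members.

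The 3 measured genes of antigen presentation had log2 ratios below 0. *H2-D1*, a class I heavy chain, was at 4.50 (4.24 to 4.76) and 1.79 (1.66 to 1.92), with a log2 ratio of -1.33 (-1.46 to -1.19). *H2-K1* and *B2m*, the shared light chain, were lower by less, at -0.43 and -0.30. The related *H2-T3* was at 2.40 and 0.0793 (-4.92) and *H2-Q2* at 0.608 and 2.16 (1.83). In the other cells the ratio of *H2-T3* was -4.01 and that of *H2-Q2* 2.77. These heavy chain genes are related to each other to differing degrees and lie on chromosome 17. Reads may be divided among the more alike of them, which was not tested, so each single value is uncertain. *Plscr1*, an interferon-responsive phospholipid scramblase, was at 2.28 (2.09 to 2.47) and 0.310 (0.259 to 0.368), with a log2 ratio of -2.88 (-3.16 to -2.60), against -0.25 in the other cells.

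Of the 15 highest ratios, *Ggh*, a lysosomal hydrolase of folate polyglutamates, led with 0.156 (0.111 to 0.212) and 1.50 (1.39 to 1.62), with a log2 ratio of 3.27 (2.81 to 3.77). It rested on few cells: its median member was at 0 in both libraries, its highest cell at 2.62 and 27.7, and after thinning it was detected in 7.76% and 17.6% of members. *Alox12b*, a lipoxygenase (1.97), *Mgmt*, a DNA repair enzyme (1.77), *Polr2a*, the large subunit of RNA polymerase II (1.61, and 0.86 in members with 20000 to under 40000 UMIs), *Rgn* (1.52) and *Plac8* (1.44) followed. *Plac8* had a median member of 1.77 and 5.80. In the other cells *Ggh* was higher by 1.49, *Alox12b* by 2.63, *Mgmt* by 1.39, *Polr2a* by 1.16, *Rgn* by 1.51 and *Plac8* by 0.33. Among the 15 lowest, *Rbpms*, an RNA-binding protein, had -2.63, *Spp2*, a secreted phosphoprotein, -2.15, and *Reg4*, a lectin of secretory cells, -1.70. In the other cells *Rbpms* had -1.17, *Spp2* -2.73 and *Reg4* 0.98. *Gm10260* held 781 UMIs in the control and 1 in Taf4IEC members. RefSeq lists it as a pseudogene of *Rps18*, which was itself at 11.8 and 24.6 (1.06), so that the reads of the pair may have been divided differently and neither value stands for a change of the gene. Of the 36 genes at least 2-fold higher in members, 24 were also at least 2-fold higher in the other cells, 11 had the same sign under 2-fold and 1 the opposite sign. For the 45 lower genes these numbers were 18, 18 and 9. Over all 3178 genes the ratios in the other cells had a median of 0.21, with 5th and 95th percentiles of -0.45 and 1.06. A ratio at least 2-fold higher was thus more common there than one at least 2-fold lower. The 2 sets of numbers therefore cannot be compared directly.

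Members varied along the level of *Apoa1* itself. The genes whose levels were most like that of *Apoa1* over members, by Spearman correlation after thinning to 5000 UMIs among 675 genes, were *Fabp2* (rho 0.45 over 116 control and 0.52 over 102 Taf4IEC cells), *Crip1* (0.56 and 0.39), *Apoc3* (0.53 and 0.40), *Prap1* (0.48 and 0.40), *Guca2b*, which encodes the hormone uroguanylin (0.45 and 0.43), *Rbp2* (0.50 and 0.36), *Cyp3a13* (0.41 and 0.45) and *Cyp3a11* (0.41 and 0.41). Cells of a library share its preparation and the total to which levels are scaled, so these values are descriptions. *Fabp1* was not among them (-0.08 and 0.22). Of the 100 lowest correlations 75 belonged to ribosomal protein genes, down to *Rpl3* at -0.40 and -0.60. Among all 675 genes 78 were ribosomal protein genes.

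In steps of *Apoa1* from 5 to 10, 10 to 20, 20 to 40 and over 40 there were 34, 22, 31 and 29 control members and 14, 23, 31 and 34 Taf4IEC members. *Fabp2* was at 17.0, 17.2, 49.6 and 74.3 per 10000 in the control and 15.1, 16.0, 29.3 and 96.5 in Taf4IEC. *Apoa4* was at 12.3, 19.2, 23.6 and 44.0 in the control and 3.17, 5.17, 5.59 and 12.9 in Taf4IEC. *Apoc3* was at 19.6, 25.5, 44.0 and 62.7 in the control and 6.33, 14.9, 20.8 and 42.5 in Taf4IEC. Both were thus higher with more *Apoa1* in each library and lower in Taf4IEC at each step, with intervals apart. *Cyp3a11* was at 3.58, 6.15, 9.29 and 13.3 and at 11.6, 10.2, 9.25 and 19.5, and the intervals of the libraries overlapped only from 20 to 40. The sum of ribosomal protein genes went from 2304 to 1398 per 10000 in the control and from 2038 to 1278 in Taf4IEC. *Fabp1* had no steady course in the control (56.5, 50.1, 62.8 and 37.9) and its lowest level in the first step of Taf4IEC (20.0, 45.8, 55.8 and 54.3).

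**Figure D5:**
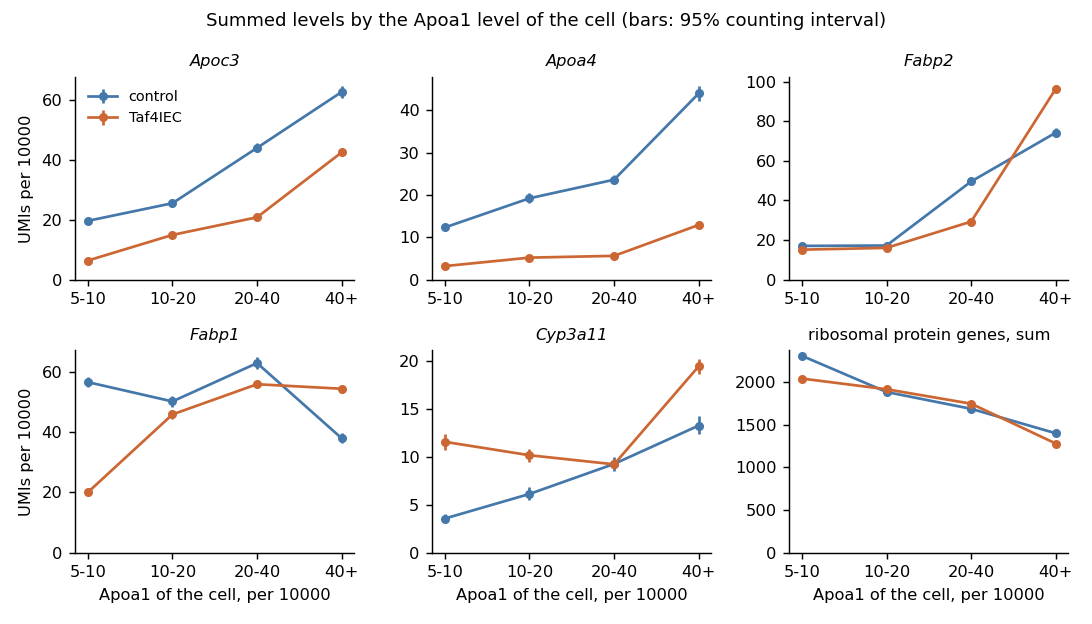
UMIs per 10000 summed over members (vertical axes) in 4 steps of the Apoa1 level of the cell (horizontal axes), for 5 genes and the sum of ribosomal protein genes, control in blue and Taf4IEC in orange, with 95% Poisson intervals. Apoa4 and Apoc3 lie lower in Taf4IEC at each step, Fabp2 is highest in the last step at 74.3 and 96.5, and ribosomal protein genes are lowest there at 1398 and 1278.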

How the data were processed

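Counts of UMIs per gene and cell were deposited for 1 control and 1 Taf4IEC library of 10X 3′ single cells. The submitters' processing notes name bcl2fastq 2.17.1.14, Cell Ranger 3.1, Seurat 3.1.4 and mm10, and per the study's methods the authors removed unexpressed genes. The deposited counts are whole numbers without normalization, and a gene that 1 file does not list was taken as 0. Cells are not replicates, so UMIs were summed over members per library and no test was run. Genes were described with at least 200 UMIs over members, without the 7 genes of the rule, and without *Sis*, *Fabp1* and *Fabp2* against the enterocytes with little *Apoa1*. A gene was counted at 2-fold, and a ratio against 0 UMIs used a floor of 3 counts over the group. Differences of shares follow the square-and-add method of Newcombe. Named genes are the members of the gene lists, the 15 highest and 15 lowest ratios between libraries and against the enterocytes with little *Apoa1*, the 15 highest against the other cells and the 10 closest correlates of *Apoa1*. Members and lists were chosen with earlier results of these data known. No doublet caller was run, and an alternative left out the 5% of members with most UMIs. Promoters and coordinates are from RefSeq (GRCm38.p6). The steps, written with pandas 2.3.3, scipy 1.17.1 and numpy 2.4.6 in Python 3.11.15, were tested on simulated data.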

Additional observations from a re-analysis of the deposited data

How the results depend on the processing

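The alternatives changed the limits of the rule, the depth or number of members, the scaling and the minimum count per gene. Counts of genes depended most on that minimum. With at least 50 or 1000 UMIs per gene, 160 or 8 genes were at least 2-fold higher in Taf4IEC members (36 at 200) and 154 or 8 lower (45 at 200). The same settings gave 631 or 186 genes higher and 770 or 21 lower than in the other cells, and 103 or 18 higher (53 at 200) and 17 or 0 lower (2 at 200) than in the enterocytes with little *Apoa1*. Thinning each cell to 5000 UMIs gave 76 higher and 105 lower between libraries and 13 lower than in the enterocytes with little *Apoa1*. Without mitochondrial, ribosomal and 2 rRNA-like genes, 305 were lower than in the other cells and 4 than in those enterocytes, as with the mean over cells. That count was 1 with an *Apoa1* minimum of 3, with stricter secretory limits, with a minimum of 2000 UMIs per cell, without the 5% of members with most UMIs and when centred on the median gene. Higher in Taf4IEC were 21 genes in members with *Apoa1* from 10 to under 40, 14 in members with 20000 to under 40000 UMIs (22 lower) and 20 in members with under 5000 genes. The last 2 settings, and the definition of the enterocytes with little *Apoa1*, were added after seeing the data, since the planned definition by *Reg3b*, *Reg3g* and *Fabp6* found 8 control and 2 Taf4IEC cells and was not run. In members with 20000 to under 40000 UMIs *Cldn4* (0.12) and *Sprr1a* (0.67) changed sign. Of 42 named genes past 2-fold, 29 stayed past it in every alternative run. Of 33 lists with at least 2 measured genes, 10 changed the sign of their median in some alternative, and that of integrated stress ran from -1.51 to -1.31. The difference of the share of all cells ran from 0.804 to 1.77 points, and its interval left out 0 with an *Apoa1* minimum of 10 (1.66) and a minimum of 2000 UMIs per cell (1.77). No paired analysis was possible because each condition has 1 library.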
